A study of Xenopus laevis with 8 samples.

Results

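Xenopus laevis carries most of its genome in 2 related chromosome sets, and the signals of both copies of 1017 genes were compared in hindlimb buds. The 1017 pairs are all genes for which the annotation of the array gives at least 1 probe set with a single gene symbol for the .L copy and for the .S copy, the symbols being the same before the suffix. They were drawn from 4307 genes with a .L probe set and 2956 genes with a .S probe set. A further 3290 genes had only .L and 1939 only .S probe sets, so that their copies could not be compared. The pairs used 2421 of the 15491 probe sets that are not controls, and 748 pairs had 1 probe set for each copy. RefSeq's genes of Xenopus_laevis_v10.1 were looked up for all 2421 probe sets, and each suffix was that of the chromosome set, L or S, on which the gene lies. This match concerns the gene names and does not show which copy a probe set binds.

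RNA came from whole hindlimb buds of tadpoles at stage 52 that had been kept for 24 h in water with ethanol or with cyclopamine. Cyclopamine, an inhibitor of Smoothened and so of Hedgehog signalling, was given in ethanol at 1 µg/ml, and the control tadpoles received ethanol alone. Each of the 8 Affymetrix arrays measured 1 pool of 18 to 22 limb buds, and the labels name no mutant or transgene. Of the 4 ethanol arrays, replicates 1 and 2 were from clutch A and replicates 3 and 4 from clutch B, as were the cyclopamine arrays of the same numbers. The members of a numbered pair shared their clutch, day of exposure and extraction. The differences between copies were taken from the 4 ethanol arrays, and all 8 arrays were used to follow whether the copies moved together.

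The ancestor of X. laevis arose when the genomes of a pair of frog species came together, and many genes were kept as a copy on a longer (.L) and on a shorter (.S) chromosome. Such copies are called homeologs. They often encode nearly the same protein, while their promoters and enhancers have drifted apart, so that they can be used unequally in a tissue. In the limb bud, a mesenchyme patterned by transcription factors and secreted signals grows beneath an ectoderm, while muscle, cartilage, vessels and nerves begin to form.

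All levels below are log2 intensities, and the floor, the 20th percentile of all values, was 5.45. On the linear scale of the deposited intensities, the array medians, controls included, lay between 189.9 and 219.6 before normalization. With .L and .S copies counted separately, 11 of 11 limb mesenchyme markers on the array were above the floor on all 4 ethanol arrays. Among them were pitx1.L at 11.4 and hoxd13.S at 10.4. Most values on the array lie above a floor at the 20th percentile, so such counts do not by themselves identify the tissue. Markers of other cell types were measured too. Counted in the same way, 7 of 7 muscle, 5 of 6 epidermal and 3 of 4 cartilage markers were above the floor on the 4 ethanol arrays. So were 4 of 6 red cell, 3 of 3 endothelial and 1 of 4 nerve and glial markers.

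In ethanol buds the .L copy gave the brighter signal somewhat more often than the .S copy. Both copies were at the floor on every ethanol array in 41 pairs, which left 976 for the test. Of these, 257 pairs (26.3%) had a .L signal at least 1 log2 unit above .S, and 191 (19.6%) had a .S signal at least 1 unit above .L, by limma against 0 with a Benjamini-Hochberg adjusted p under 0.05. The .L copy thus made up 57.4% of the called pairs, and 528 pairs (54.1%) were not called. With no minimum difference, 412 pairs passed for .L and 319 for .S. The median of .L minus .S was 0.14 over the 976 pairs, and on the separate ethanol arrays it lay between 0.08 and 0.14, with .L brighter in 52.2% to 54.7% of pairs. In a mixed tissue, a copy used in fewer cells and a copy with less RNA per cell cannot be told apart.

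Most pairs kept their direction from array to array. The .L copy was brighter on all 4 ethanol arrays in 418 pairs and the .S copy in 332, while 226 pairs were mixed. Over all 8 arrays, 680 pairs (69.7%) kept 1 direction, and 444 of the 448 called pairs were among them. The calls were made on 4 of these 8 arrays, so the second count follows in part from the calls. The like share for 2 probe sets of the same copy is not given here, so a constant direction is not shown to be particular to homeologs. Among the 780 pairs with both copies above the floor on every ethanol array, the middle part of the distribution, from the lower to the upper quartile, ran from -0.68 to 1.18. The extremes were -4.55 and 5.39. The absolute difference reached 2 log2 units in 137 pairs (17.6%), 91 of them toward .L and 46 toward .S, and it was under 0.25 in 130 pairs (16.7%). The median SD of a pair's difference over the 4 arrays was 0.24, which is small beside this range.

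The probe sets of the copies have different sequences, and a probe set binds its transcript with a strength of its own. The same comparison was therefore made between different probe sets that the annotation gives to a single copy. If each binds only that copy, which could not be checked, no difference between copies enters. In 1852 such combinations from 873 copies, the median absolute difference was 0.99, it reached 2 log2 units in 19.8%, and 922 (49.8%) passed the same test. A copy with several probe sets gave several combinations, which are not independent. With 1 combination for each of the 873 copies, the median was 1 and 50.2% passed. For 571 homeolog pairs with 1 probe set each, the median absolute difference was 0.91, it reached 2 units in 16.1%, and 267 (46.8%) passed. The signals of .L and .S in these pairs thus lay no further apart than those of 2 probe sets annotated to the same copy. The copies in the 2 comparisons were not the same, since the second took only copies with 1 probe set. Each .L minus .S value below is accordingly a difference between probe set signals, and no ratio of RNA amounts was read from it.

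**Figure D1:**
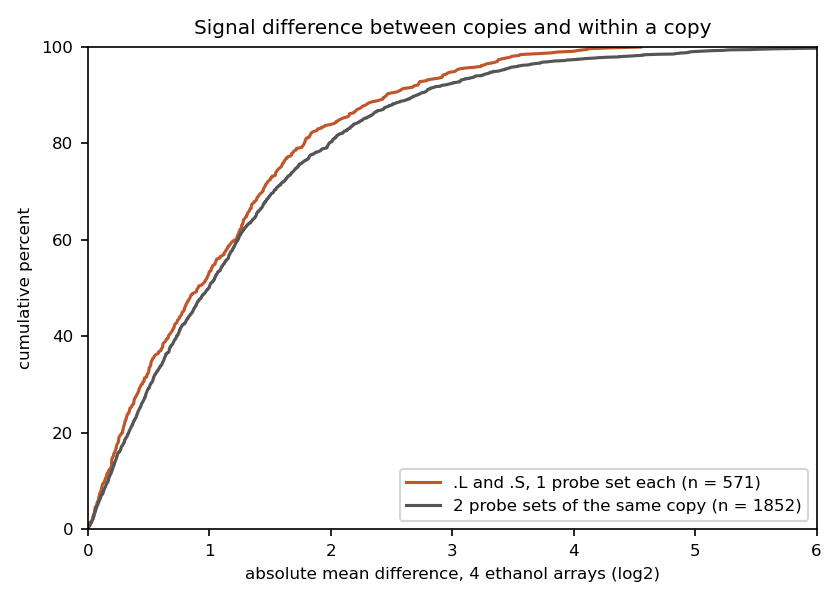
Cumulative percent (y) of the absolute mean signal difference on the 4 ethanol arrays in log2 units (x), for 571 homeolog pairs with 1 probe set each and for 1852 combinations of 2 probe sets of the same copy, all above the floor. The axis ends at 6. The curves run close together, with medians of 0.91 and 0.99.

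Brightness had little bearing on the size of the differences. The 780 pairs were put into 4 groups of 195 by the mean of both copies, and from the dimmest to the brightest group the median absolute difference was 0.91, 1.09, 0.88 and 0.81. The .L copy was called brighter in 27.7%, 34.4%, 28.2% and 22.1% of pairs and the .S copy in 17.4%, 19.5%, 15.4% and 21%. In the brightest group the shares of both copies were thus nearly level. Probe sets that the maker marks as matching several transcripts (names ending in _s_at, _x_at or _a_at) were present in 137 pairs. Their median absolute difference was 0.91, as in the 643 pairs without them.

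The largest difference toward .L was that of eif3a, the largest subunit of the translation initiation factor eIF3. Its .L copy stood at 12.36, 12.13, 12.30 and 12.28 in ethanol replicates 1 to 4, and its .S copy at 6.67, 6.94, 6.88 and 7.03. The copies were far apart in every pool, by 5.39 ± 0.22 log2 units (SD, n = 4; adjusted p = 6.02e-07, limma). For cnot6l, a deadenylase that shortens mRNA tails, the .L signals of 10.65, 10.01, 11.09 and 10.26 faced .S signals of 6.13, 6.35, 5.87 and 5.82, a difference of 4.46 ± 0.64. The spread of cnot6l was wider than that of eif3a, but no .S value came within reach of a .L value. The .L copy of hes4, a transcriptional repressor of the Hairy and Enhancer of split family, measured 11.71, 11.28, 11.70 and 11.99 against 7.58, 7.34, 7.78 and 7.38 for .S, which is a difference of 4.15 ± 0.32.

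The other pairs at the .L end came from many cell functions. The RNA-binding La protein ssb (4.13), lamin B1 lmnb1 (4.11), the nuclear phosphoprotein nucks1 (4.04) and the proteasome subunit psma3 (4.00) followed. Next were smn1 (3.81), which assembles spliceosomal particles, rangap1 (3.68), which activates the GTPase of Ran, twsg1 (3.56), a secreted modulator of BMP signalling, and rab5if (3.55). In psma3 both copies were bright, and the .L values of 13.20, 13.23, 12.70 and 12.96 kept a nearly constant distance from the .S values of 9.26, 9.13, 8.57 and 9.13. The difference of rps6, a protein of the small ribosomal subunit, was 4.32 ± 0.16 when its 2 .S probe sets were averaged. With only the brighter .S probe set it was 0.88, under the minimum of 1 log2 unit.

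At the .S end stood psmd2, a subunit of the regulatory particle of the proteasome. Its .L copy gave 7.68, 6.54, 7.03 and 7.80, and its .S copy gave 12.01, 11.76, 11.72 and 11.77. The .S signals were tight and high while the .L signals were low and scattered, and the difference was -4.55 ± 0.54 (adjusted p = 3.26e-06, limma). The proteasome genes psma3 and psmd2 thus lay near opposite ends of the range. For tubg1, the gamma-tubulin of the microtubule-organizing centre, .L measured 5.45, 5.99, 6.38 and 6.91 and .S 10.39, 10.48, 10.48 and 10.61. The lowest .L values of tubg1 were at or close to the floor, so that its difference of -4.30 ± 0.53 may be understated in size.

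A further 10 pairs completed the .S end. The decapping cofactor pnrc2 had a mean difference of -4.30. The lactate dehydrogenase subunit ldhb measured 8.12, 8.47, 7.86 and 8.16 for .L and 11.80, 12.19, 11.79 and 12.29 for .S, a difference of -3.86 ± 0.21. Splicing was represented by hnrnpa3 (-3.48), srsf5a (-3.41) and cdc5l (-3.10). The remaining pairs were the Hsp70 cofactor st13 (-3.28), the cytochrome c oxidase subunit cox4i2 (-3.24), emc1 (-3.18) of the membrane protein insertase of the endoplasmic reticulum, the integrin itgb1 (-3.13) and the peroxidase prdx1 (-3.06). For itgb1, the .L copy had 2 probe sets, and with the brighter of them the difference was -0.85, under the minimum.

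**Figure D2:**
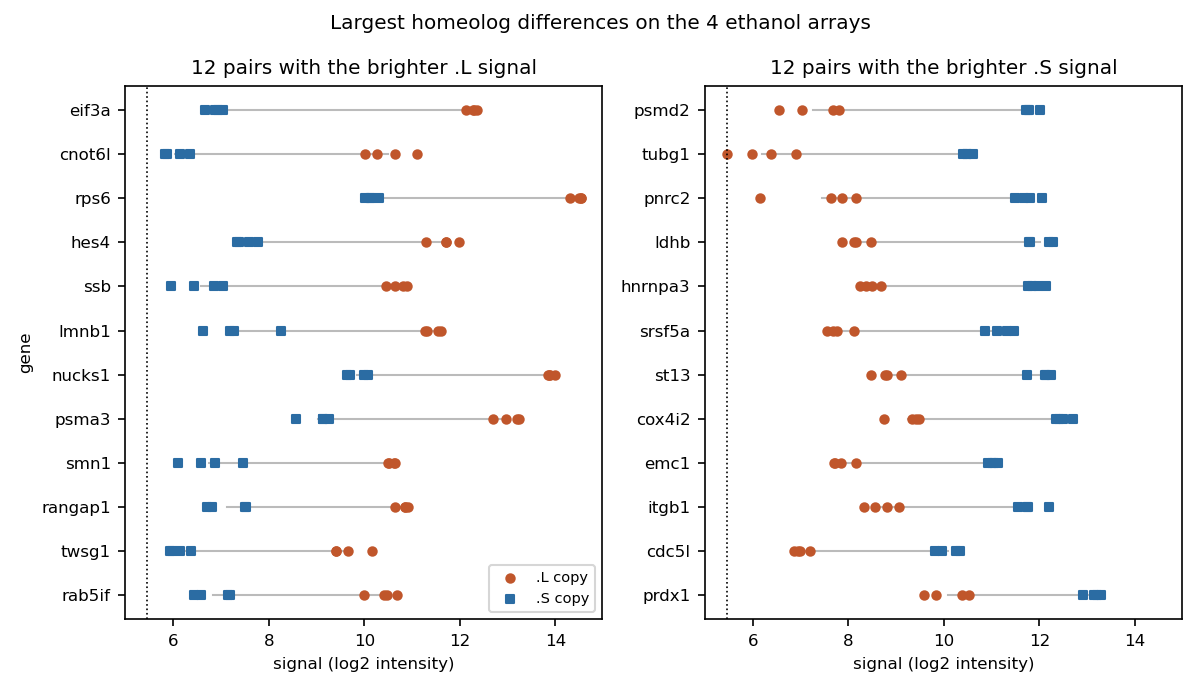
Signals in log2 intensity (x) of the .L copy (circles) and the .S copy (squares) on each of the 4 ethanol arrays for the 12 pairs per direction (y) with the largest difference and both copies above the floor. Grey lines join the means and the dotted line is the floor of 5.45. In none of these pairs did the copies overlap, which largely follows from picking them for large differences on the same arrays.

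In 31 pairs 1 copy was at the floor on all ethanol arrays while the other was above it on all of them. The dim copy was .S in 12 pairs and .L in 19. A copy at the floor has only an upper bound, so the fold of the bright copy over it is a lower bound. The strongest case was serpind1, which encodes the thrombin inhibitor heparin cofactor II. Its .L copy measured 11.54, 11.19, 11.80 and 11.37, at least 65.1-fold above the floor at which .S lay on every array. The .L copy of dact1, a Dishevelled-binding modulator of Wnt signalling, measured 10.69, 10.08, 10.75 and 10.39, at least 32.7-fold brighter than .S. The .L copy of bmpr1a, a type I receptor for BMP ligands, measured 9.68, 9.16, 9.96 and 9.12 and was at least 16.4-fold brighter.

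Other pairs with .S at the floor were the branched-chain aminotransferase bcat1 (at least 18.9-fold), the zinc transporter slc39a9 (at least 11.8-fold) and the proprotein convertase furin (at least 4.82-fold). The bounds of tmem45b (at least 4.01-fold) and of the neuronal intermediate filament prph (at least 2.71-fold) were the smallest of the 8 named. Among pairs with .L at the floor, the .S copy of rad23b, which takes part in DNA damage recognition, measured 9.48, 9.23, 9.42 and 9.51 and was at least 15.6-fold brighter. The small GTPase rab4b followed with at least 13.3-fold, and vangl2, a core protein of planar cell polarity, with at least 12.9-fold. The .S copy of vangl2 stood at 8.93, 9.17, 9.24 and 9.23, well clear of the floor in every pool. The .S copies of cdk11b, cldn6.1, krt70, the Wnt receptor fzd8 and prrg2 exceeded the floor at least 9.13-fold, 6.71-fold, 6.26-fold, 5.36-fold and 4.63-fold. The difference of krt70 fell to -0.13 without probe sets marked as matching several transcripts. A floor signal from little RNA and one from a weak probe set cannot be told apart.

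At the opposite extreme, 8 bright pairs had almost the same mean signal from both copies. The ribosomal protein rps3a gave .L signals of 14.45, 14.45, 14.39 and 14.47 and .S signals of 14.39, 14.34, 14.45 and 14.39, a difference of 0.05 ± 0.08. The importin kpna2 differed by 0.04 ± 0.12 and the chaperonin subunit tcp1 by -0.01 ± 0.21. The others were the sulfide-oxidizing enzyme sqor (0.00 ± 0.23), natd1 (0.00 ± 0.19), the actin regulator cap1 (0.02 ± 0.16), cpne1 (-0.02 ± 0.58) and the ATP synthase subunit atp5po (0.04 ± 0.15). The copies of cpne1 were near equal only in the mean, and its wide spread reflects a difference between the clutches that is described below. These pairs were picked for a small mean, which does not show that the copies are equal.

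The pairs were also grouped into 21 gene lists by function, whose counts and medians are given as descriptions, without a test between lists. Of 10 translation factor pairs tested, 6 were called toward .L and 2 toward .S, and the median .L minus .S of the 9 pairs above the floor was 1.69, beside 0.21 over the 780 pairs and shares called of 26.3% and 19.6% over all pairs tested. The poly(A)-binding protein pabpc1 (3.37) and the RNA helicase eif4a1 (2.52) stood with eif3a at the .L end, and the elongation factor subunit eef1d (-2.38) at the other. Taking only the brightest probe set of each copy turned all 3 of these around, to -0.66 for pabpc1, -0.44 for eif4a1 and 1.49 for eef1d, while 5 pairs were then called toward .L and 1 toward .S. Of 8 DNA replication pairs, 4 were called toward .L and none toward .S, with a median of 1.00.

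In the replication list, the .L copy of mcm5, a subunit of the replicative helicase, measured 11.17, 11.10, 11.24 and 11.08, and the .S copy 8.67, 8.76, 8.51 and 8.80. The sliding clamp pcna was bright from both copies, with .L at 13.58, 13.47, 13.55 and 13.38 and .S at 11.41, 11.72, 11.95 and 11.85. Both differences, 2.46 ± 0.20 for mcm5 and 1.76 ± 0.29 for pcna, were several times their spread. Cytoskeletal pairs leaned the other way in number, with 8 of 18 called toward .S and 4 toward .L. Beside tubg1, the dynein light chain dynll1 (-1.72) and the autophagy protein map1lc3a (-1.5) were called toward .S. Their median of 0.15 over 15 pairs above the floor was close to that over the 780 pairs. Of 10 muscle structure pairs, 3 were called toward .S and none toward .L. The median of the 4 muscle pairs above the floor was -0.53, and it turned to 0.05 with the brightest probe set of each copy. Proteasome (5 toward .L and 2 toward .S of 12) and splicing pairs (5 and 6 of 19) were split. All these counts stand beside shares of 26.3% toward .L and 19.6% toward .S over all pairs tested.

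**Figure D3:**
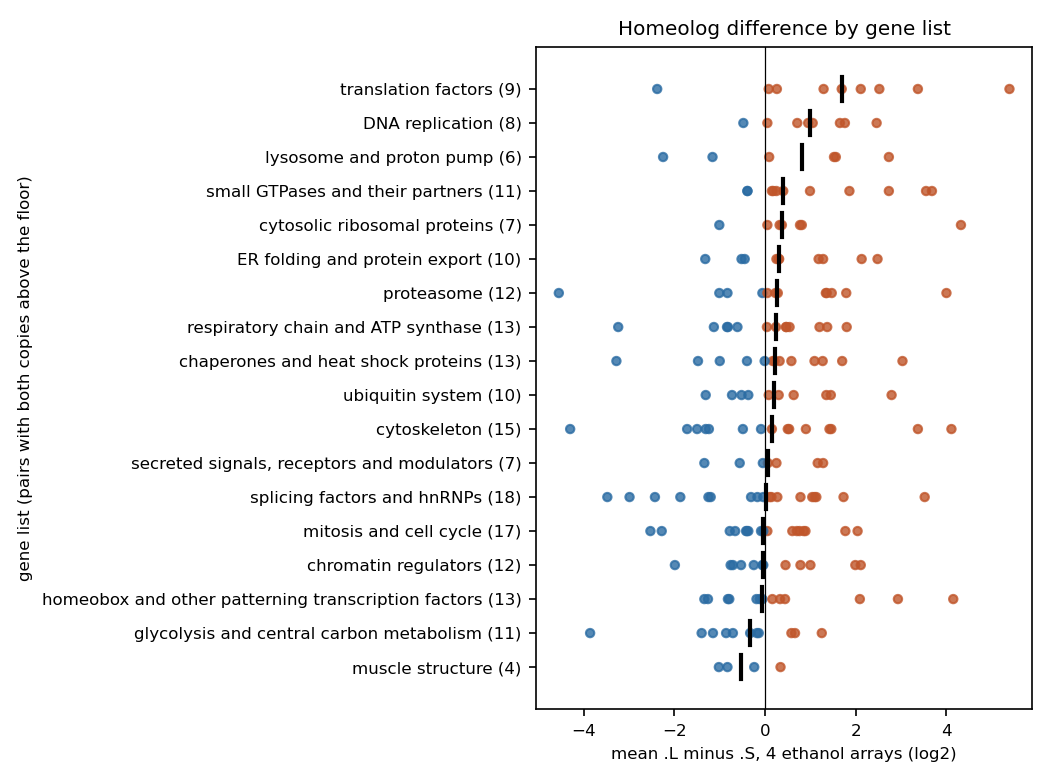
Mean .L minus .S in log2 units on the 4 ethanol arrays (x) for the pairs of each gene list (y) with both copies above the floor. Points are pairs, with .L brighter to the right of 0 and .S brighter to the left, and black bars are medians. Lists with at least 4 such pairs are drawn, from translation factors at a median of 1.69 down to muscle structure at -0.53, where the 4 pairs give 0.05 with the brightest probe set of each copy.

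Among genes that pattern the embryo, the 31 homeobox and other patterning transcription factor pairs held 16 copies at the floor on all ethanol arrays, and 6 of the pairs had both copies there. Over all 1017 pairs, 80 .L and 78 .S copies were at the floor, and 41 pairs had both copies there. Of the 25 tested, 5 were called toward .L and 2 toward .S, beside 26.3% and 19.6% over all pairs tested. For msx1, a homeobox gene of limb mesenchyme and ectoderm, .L measured 8.71, 9.10, 9.19 and 9.37 and .S 6.30, 5.74, 6.48 and 6.13, a difference of 2.93 ± 0.45 (adjusted p = 1.05e-05, limma). The copies of msx1 did not overlap. For tbx3, a T-box factor of the limb margins, .S was the brighter copy at 9.47, 9.09, 9.03 and 8.42 against 7.47, 7.30, 8.32 and 7.55 for .L. The difference of tbx3 was -1.34 ± 0.65, and its size was larger in both clutch A pools (-2.01 and -1.78) than in both clutch B pools (-0.71 and -0.87). Over all 8 arrays the clutch shift of tbx3 did not pass (adjusted p = 0.205, limma).

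The bHLH factor hand2, chosen after its values were seen because it marks posterior limb mesenchyme, was bright from both copies. Its mean signals were 10.94 ± 0.30 for .L and 11.00 ± 0.46 for .S, and the difference of -0.06 ± 0.33 did not pass (adjusted p = 0.734, limma). The HLH inhibitor id2 (2.09) was called toward .L and the repressor hes1 (-1.26) toward .S, the opposite of hes4.

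Of 13 signalling pairs tested, 5 were called toward .L and 3 toward .S, and with the brightest probe set of each copy it was 5 and 5. The shares called over all pairs tested were 26.3% toward .L and 19.6% toward .S, and no test between lists was run. The ligand bmp2 gave .L signals of 9.44, 9.14, 9.42 and 9.01 and .S signals of 7.81, 8.03, 8.30 and 7.77. The secreted Wnt antagonist frzb gave .L signals of 9.46, 8.60, 8.85 and 8.30 and .S signals of 8.45, 7.55, 7.52 and 7.04. In both genes .L was brighter on every array, by 1.28 ± 0.24 for bmp2 and 1.16 ± 0.16 for frzb. The protease bmp1, which cleaves procollagen and chordin, was brighter from .S by a mean of -1.34 ± 0.28.

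Across all 8 arrays the copies of a gene tended to move together. The correlation of .L with .S over the 8 arrays, which share their normalization, had a median r of 0.50 in 757 pairs above the floor on all arrays, with quartiles of 0.17 and 0.76. It was above 0 in 618 pairs (81.6%) and above 0.8 in 156 (20.6%). For 1744 combinations of 2 probe sets of the same copy the median r was 0.51, and 19.2% were above 0.8. Copies with several probe sets enter these combinations more than once, and r was not taken with 1 combination per copy. For .L copies against the .S copies of other genes, over all 572292 combinations, the median was 0.02, and 3.52% were above 0.8. The agreement between homeologs was thus about that between probe sets of 1 copy, at n = 8 for each r. Whether a probe set also binds RNA of the other copy could not be checked here. The part of such binding in these r values and in the signal differences was not tested.

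**Figure D4:**
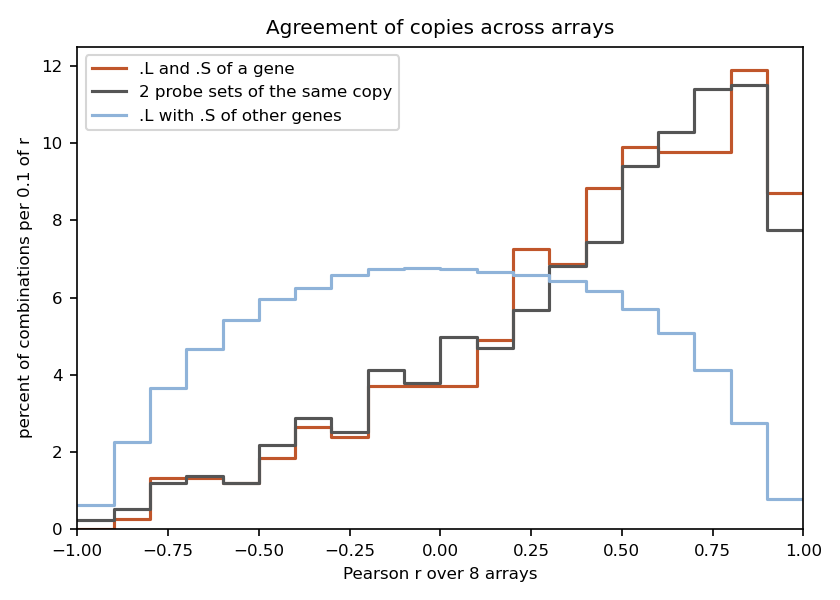
Distribution of Pearson r over 8 arrays (x) as percent of combinations per 0.1 of r (y), for .L and .S of 757 genes, for 1744 combinations of probe sets of the same copy, and for .L with the .S copies of other genes. The first 2 curves rise toward 1, with medians of 0.50 and 0.51, and the third is centred near 0.02.

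Where both copies varied, they agreed more. In the 146 pairs in which each copy had an SD of at least 0.3 over the 8 arrays, the median r was 0.79, beside 0.43 in the 611 others. The same limit also gave a higher median r, 0.73, for 309 combinations of probe sets of the same copy. For .L with .S copies of other genes among the 146 pairs, the median was 0.06, and 7.22% were above 0.8. The size of a pair's difference had little to do with the agreement of its copies. Over the 757 pairs, the median r was 0.53, 0.48 and 0.48 for absolute differences under 1, from 1 to 2 and above 2. Among these 146 pairs the most alike were the copies of tnnc2, the troponin C of fast muscle, with r of 0.99. In ethanol replicates 1 to 4 its .L signals were 6.95, 9.12, 9.60 and 7.58 and its .S signals 7.22, 9.18, 9.71 and 8.08, and in the cyclopamine replicates .L gave 6.98, 10.41, 9.47 and 9.44 and .S 7.38, 10.24, 9.70 and 9.60. Both copies were low in the first pool of each treatment and high in the second. The mean of 7 muscle markers also varied between the 8 pools, from 7.91 to 9.27, and its part in this agreement was not tested.

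The muscle light chain myl1 (r of 0.97), the G protein subunit gnb3 (0.98), fam171a1 (0.99), the prohibitin phb (0.97) and the replicative helicase subunit mcm4 (0.97) completed the 6 highest of the 146. For mcm4 the .L copy lay 1.56 to 1.96 above .S on all 8 arrays. The 6 lowest of the 146 were those of the RNA debranching enzyme dbr1 (-0.80), frrs1 (-0.58), the hyaluronan-linking protein hapln3 (-0.53), the GTPase rnd1 (-0.32), mgst3 (-0.32) and flot1 (-0.30). Both dbr1 and hapln3 were among the pairs that differed between the clutches.

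A fixed binding strength of a probe set cancels when .L minus .S is compared between arrays. With treatment as a covariate, the difference shifted between the clutches in 30 of 987 pairs by limma at an adjusted p under 0.05. It was higher in clutch B in 12 pairs (1.22%) and lower in 18 (1.82%), and 199 pairs had an unadjusted p under 0.05. Of single genes or unnamed probe sets, 159 of 12380 (1.28%) differed between the clutches in either direction in the same model. The like count for pairs is the 30 of 987 in both directions together. The 8 values of 126 pairs (12.8%) did not overlap between clutches, beside 19 pairs (1.93%) between treatments. The like share over single genes is not given here, so this count does not set the pairs apart from other genes. The sources used here do not say which numbered pairs shared a day of exposure or an extraction with each other, and the part of day and extraction in these shifts was not tested. Within a single treatment, with 4 arrays, 0 pairs passed by limma, while 108 of 976 pairs in ethanol and 125 of 970 in cyclopamine had an unadjusted p under 0.05. Leaving out single arrays gave 6 (without cyclopamine replicate 1) to 16 pairs (without ethanol replicate 2 or 3), and the other arrays gave 8 to 13. Only cpne1, ephb3, mknk2 and rbm5 passed whichever array was left out. In ephb3 and mknk2 a copy lay at the floor on several arrays, which narrows the spread that the test uses. The floor mattered too, since 8 pairs passed with the floor at the 10th percentile.

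The clearest shift was that of ephb3, a receptor tyrosine kinase for ephrin-B ligands. Its .S copy was at the floor of 5.45 on all 4 clutch A arrays, and it measured 7.77 and 7.27 in the ethanol and 7.71 and 7.99 in the cyclopamine pools of clutch B. Its .L copy stayed between 7.95 and 8.48 on all 8 arrays. The difference therefore went from 2.5, 2.68, 2.86 and 2.66 in clutch A to 0.57, 0.89, 0.76 and 0.44 in clutch B, a shift of -2.01 ± 0.14 (SE, adjusted p = 0.000628, limma). Only the .S copy passed on its own (2.23 higher in clutch B, adjusted p = 0.0024). Within treatments, the shift of ephb3 was -1.86 in ethanol and -2.16 in cyclopamine, and the floor in clutch A makes its size a lower bound.

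In cpne1, a calcium-dependent phospholipid-binding protein, the brighter copy switched with the clutch. The .S copy was brighter in clutch A, where .L minus .S was -0.35, -0.68, -0.65 and -0.62, and the .L copy in clutch B, at 0.49, 0.44, 0.78 and 0.55. The shift was 1.14 ± 0.13 (SE, adjusted p = 0.00719, limma), and again the .S copy carried most of it, falling by 1.42 (adjusted p = 0.021) while .L fell by 0.28 (adjusted p = 0.204). The splicing regulator rbm5 switched in the opposite sense, from 0.5, 0.65, 0.64 and 0.52 in clutch A to -0.42, -0.17, -0.34 and -0.45 in clutch B. Its shift was -0.93 ± 0.11 (SE, adjusted p = 0.00745, limma), and its .S copy was 1.16 higher in clutch B (adjusted p = 0.0474). In total 4 pairs had the opposite direction on every array of each clutch, and the other 2, rbm14 and tcp1, did not pass (adjusted p = 0.0721 and 0.192).

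Other shifts had different forms. In mknk2, a kinase that phosphorylates eIF4E, .L was at the floor on all 8 arrays. Its .S copy was between 5.45 and 5.48 in clutch A and between 6.35 and 6.52 in clutch B, so that its difference has only a bound. In ext1, a glycosyltransferase of heparan sulfate synthesis, .S was 1.39 higher in clutch B (adjusted p = 0.00532) and .L 0.22 higher (adjusted p = 0.361), a shift of -1.17 ± 0.17. With only the brightest probe set of each copy the shift of ext1 was 0.18 and did not pass. The copies of the esterase esd moved apart in sign, with .L 0.5 lower and .S 0.5 higher in clutch B, but neither copy passed on its own (adjusted p = 0.0834 and 0.0628).

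Over the 30 pairs, the .S copy moved more in 19 and the .L copy in 10, and the copies moved in opposite directions in 16. These counts leave out mknk2, whose .L copy was at the floor on all 8 arrays and was not fitted. How often .S moved more over all pairs tested is not given here. Only .S passed the single-gene test in 7 pairs, only .L in 2 and neither in 21. Of the 30 pairs, 24 had both copies above the floor on all 8 arrays, and 10 of these had a negative r. In cdo1, cebpa, dpf2, ephb3, mknk2 and tubg1 a copy was not above the floor on every array, so the size of their shifts depends on the floor. In cdo1 neither copy passed on its own (adjusted p = 0.849 for .L and 0.0926 for .S, limma). Over all 757 pairs above the floor on all 8 arrays, r was negative in 139. Picking pairs by a shift of .L minus .S favours copies that move in opposite directions, so the counts of opposite moves and of negative r are descriptions only. In epcam, an epithelial adhesion molecule, the shift of -0.61 ± 0.10 came beside large common changes, as both copies ranged over more than 1 log2 unit between pools. The mean of the 3 endothelial markers, 3 of 3 above the floor, was 6.93 to 7.25 in clutch A and 7.28 to 7.77 in clutch B, while the means of the other marker lists overlapped between clutches. Its part in these shifts was not tested, nor were sequence differences between the clutches at the probe sites.

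**Figure D5:**
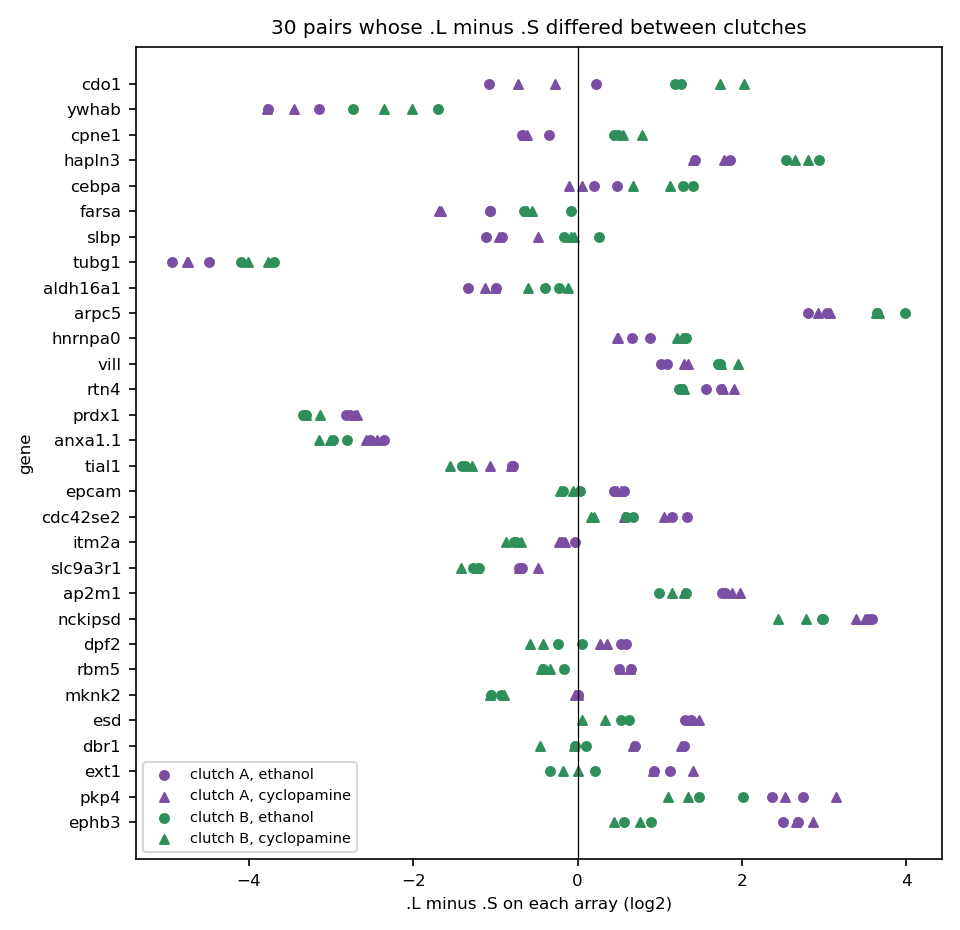
Values of .L minus .S in log2 units on each array (x) for the 30 pairs that differed between clutches (y), ordered by shift. Colours mark clutch A and B, circles ethanol and triangles cyclopamine. Apart from cdc42se2 the clutches do not overlap, whatever the treatment, from cdo1 with a shift of 2.02 to ephb3 with -2.01. The pairs were picked by the clutch test on these same values, so this separation largely follows from the picking. In cdo1 and ephb3 a copy was not above the floor on every array.

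Cyclopamine moved the balance of no pair past the threshold. Of 987 pairs, 0 (0%) passed by limma, the smallest adjusted p was 0.244, and 41 had an unadjusted p under 0.05, of which 23 were higher and 18 lower with cyclopamine. The methods' t-test gave 39 pairs at an unadjusted p under 0.05 and 0 after adjustment. The absolute shift had a median of 0.12 and reached 1.06 at most. The lowest p values were those of dnm1l and gyg1, which had the same adjusted p of 0.244. In dnm1l, the dynamin-related GTPase of mitochondrial fission, .L minus .S was 2.96, 2.99, 3.04 and 2.92 with ethanol and 3.83, 3.72, 3.43 and 3.96 with cyclopamine, a shift of 0.76 ± 0.13 (SE).

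In dnm1l the groups did not overlap, and the .S copy was lower with cyclopamine, at 6.09, 6.26, 6.36 and 5.88 after 6.88, 7.04, 6.57 and 6.94 with ethanol. In gyg1, the glycogenin that primes glycogen synthesis, the difference was 2.77, 2.57, 2.65 and 2.58 with ethanol and 2.19, 2.04, 2.06 and 2.04 with cyclopamine, a shift of -0.56 ± 0.11 (SE). The groups of 19 pairs (1.93%) did not overlap between treatments. The like share over single genes is not given here, so this count is a description only. The endocytic protein ehd1 (0.61) and the heme oxygenase hmox1 (-0.59) had an adjusted p of 0.482, and pcgf2 (0.37) and ldhb (-0.56) of 1. With 4 pools per treatment, these values do not show that the copies respond alike.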

How the data were processed

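The authors deposited a linear intensity for each probe set and array, which the labels call normalized. The sources used here do not name the steps of background correction, summarization and normalization. Without the extreme values, each array averaged 500.07 or 500.08. Controls were left out (120 of 15611 probe sets). The intensities were quantile-normalized, set to at least the 20th percentile and converted to log2, and probe sets of a copy were averaged. Probe sets with several symbols were not used, and 117 of the pairs also have one that lists both copies. .L minus .S was tested with limma 3.58.1 in R 4.3.3 over all pairs, for the 4 ethanol arrays against 0, and for treatment and clutch over all 8 arrays, with a check on simulated data. Figures were drawn with matplotlib 3.10.9. Each pool was separate, but p-values measure the spread between these pools only, and the number of arrays limits the precision. Pools had been picked for hybridization by RNA amount and integrity. Coordinates are not given, since no build is named for the array.

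The named pairs are the 12 per direction with the largest difference, 8 per direction with a copy at the floor, the 8 most equal bright pairs, up to 3 per list and direction, up to 10 per direction that shifted (or 3 where none passed), and the 6 highest and 6 lowest r, and not every one is printed. The members and lists were chosen with earlier results of these data known. Same-numbered pools share clutch, day and extraction according to the study's text, which is where the pairing comes from. Deviations of .L minus .S from the group means correlated at 0.23, 0.33, 0.28 and 0.09 in the 4 pairs. Ethanol and cyclopamine pools of the same clutch but different numbers gave 0.26, 0.08, 0.27 and 0.33, so that these values do not set the numbered pairs apart within a clutch. Pools of different clutches gave -0.34 to -0.03. Deviations within a group cancel out, which by itself pushes the values between clutches down when those within a clutch are positive. The part of the clutch in these values was not tested.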

Additional observations from a re-analysis of the deposited data

Results flagged for a closer look

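Among 48 pairs checked for 1 ethanol array far from the other 3, 3 were found, where chance gives about 1 in 20. For rab5if, .L minus .S was 4.24 in ethanol replicate 2 and 3.26 to 3.41 in the others. For cap1 it was 0.25 in replicate 2 and -0.09 to -0.04 in the others, and for atp5po it was 0.26 in replicate 4 and -0.05 to -0.02 in the others.

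The 30 pairs whose .L minus .S differed between clutches were picked out by the test of that difference. Those with a higher value in clutch B were cdo1 by 2.02, ywhab by 1.34, cpne1 by 1.14, hapln3 by 1.12, cebpa by 0.96, farsa by 0.89, slbp by 0.86, tubg1 by 0.84, aldh16a1 by 0.78, arpc5 by 0.77, hnrnpa0 by 0.65 and vill by 0.60 log2 units. In clutch B the values changed by -2.01 for ephb3, -1.21 for pkp4, -1.17 for ext1, -1.09 for dbr1, -1 for esd, -0.98 for mknk2, -0.93 for rbm5, -0.73 for dpf2, -0.71 for nckipsd and -0.67 for ap2m1. The smaller negative shifts were -0.63 for slc9a3r1, -0.62 for itm2a and cdc42se2, -0.61 for epcam, -0.54 for tial1, -0.52 for prdx1 and anxa1.1 and -0.48 for rtn4.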

How the results depend on the processing

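With no minimum difference, 412 pairs were called toward .L and 319 toward .S, and with a minimum of 2 log2 units 110 and 74. The median .L minus .S was 0.21 in pairs with both copies above the floor. Leaving out single ethanol arrays gave 256 to 266 pairs toward .L, 185 to 192 toward .S and medians of 0.13 to 0.14. With the brightest probe set of each copy, chosen for the lists after seeing the data, translation factors had 1 pair toward .S. That setting turned the difference of pabpc1 (-0.66), eif4a1 (-0.44), eef1d (1.49), hnrnpu (-0.29), slbp (1.94), ssr4 (-0.84), p4hb (1.75) and myl1 (0.46), and the clutch shift of ext1 (0.18). The floor at the 10th percentile turned fzd10 (0.14), which lay between -0.1 and 0.01 without single ethanol arrays, the floor at the 40th percentile turned slbp (0.17), and leaving out probe sets marked as matching several transcripts turned scd (0.25). Pairs shifted between clutches numbered 8 with the floor at the 10th percentile, 0 in the ethanol arrays alone, 0 in the cyclopamine arrays alone (limma on 4 arrays each), 15 with both copies above the floor and 1 probe set per copy (chosen after seeing the data), and 6 to 16 without single arrays. The median r was 0.53 with array medians subtracted, 0.43 with the means of each treatment in each clutch subtracted, and 0.48 to 0.54 without single arrays. For the treatment shift, the replicate block gave 0 pairs, 55 with an unadjusted p under 0.05, and a smallest adjusted p of 0.547, and the pairing changed no call. The cause of these changes was not tested. For the 40 pairs with the largest differences or a copy at the floor, 527 of 533 values kept their direction and call, the minimum difference aside. These pairs were picked for such differences on the same ethanol arrays, so this count largely follows from the picking and is a description only. Depth per probe set is unknown, and levels near the floor have only a bound.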
